A study of Mus musculus with 8 samples.

Results

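The genes described here are 10 lineage markers used to recognise kidney mesangial cells, pericytes and their stromal precursors: the transcription factors Foxs1, Foxc1, Foxd1, Gata3, Tbx18 and Tcf21, the intermediate filament gene Des, and the cell surface protein genes Thy1, Mcam and Cspg4. They were taken by exact symbol from count lists of 24639 gene rows, in which each of the 10 had 1 row. The rule used names only, but the markers were chosen with earlier results of these data known. The counts came from primary mouse glomerular mesangial cells (MMC) of wild-type C57BL/6J mice (WT) and of C57BL/6J mice carrying a CRISPR-Cas9 nickase deletion at the miR-379 locus (miR-379KO). Each genotype gave 2 total RNA libraries and 2 libraries of RNA immunoprecipitated with an AGO2 antibody (AGO2-IP), so the 8 libraries formed 4 groups of replicates A and B. AGO2, an Argonaute protein, holds a microRNA and binds the messenger RNAs that pair with it. All cells were grown in serum-containing medium and received no treatment named in the labels, and per the study's methods they were prepared from pooled, sieved glomeruli. The labels call the replicates separate samples but do not tie them to separate animals or cultures, so the p-values measure the spread between these samples, which may be technical.

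Mesangial cells sit between the capillaries of the glomerulus, make its matrix and contract, and they are regarded as specialised pericytes of the glomerular tuft. They arise from a stromal progenitor that expresses the transcription factor Foxd1, and Tbx18, Foxc1, Gata3 and Tcf21 mark or are needed in parts of this stromal and mesangial lineage. Desmin (Des), NG2 (Cspg4) and CD146 (Mcam) are proteins by which mesangial cells and pericytes are stained in tissue and culture. Thy-1 (Thy1) is used in this way in some species only. None of these proteins is restricted to these cells.

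The deleted microRNA and its match to these genes are shown first, since the genotype comparison removes this microRNA. Mature miR-379-5p lies in GRCm38.p6 at chr12:109709065-109709085 on the plus strand (RefSeq), and its seed, bases 2 to 8, is in capitals.
mmu-miR-379-5p: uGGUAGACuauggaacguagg
A match to that seed on the messenger RNA strand reads GTCTACC. None of the 10 genes held GTCTACC in its longest annotated 3′-UTR (0 of 10, against 779 of 19536 genes with an annotated 3′-UTR, or 3.99%). The shorter core TCTACC occurred in 1 of the 10, Thy1, at position 534 of a 3′-UTR of 1128 bases, and it occurred in 20.8% of all genes. The Thy1 stretch, at chr9:44047985-44047990 for the bases in capitals, is printed because it was the only core match among the 10.
Thy1 3′-UTR: gatgagggcttagatTCTACCa
Letters that match a seed are a description and not a binding site, and Thy1 was close to undetected in these cells.

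Gene counts ranged from 17168230 to 22660743 per library in total RNA and from 5587611 to 17095021 in AGO2-IP. The ribosomal RNA precursor Rn45s and Lars2 took 4.67% to 9.58% of gene counts in total RNA but 80.0% to 89.0% in AGO2-IP, leaving 15524220 to 21343458 other counts per total RNA library and 1115782 to 1875037 per AGO2-IP library. Levels are therefore given as CPM, the count scaled to the sum of all gene counts without those genes, and, for comparison between genes, as RPKM, which is CPM per kilobase of annotated exon. The share of uniquely placed reads that fell outside genes was at most 8.81% in total RNA, whereas it reached 46.6% and 49.7% in the WT AGO2-IP libraries and 73.4% and 76.4% in those of miR-379KO. Mir379 itself had 0 counts in all 4 total RNA libraries, with 0 and 4 for the WT AGO2-IP libraries and 1 and 0 for those of miR-379KO, so gene counts did not check the genotype labels.

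In total RNA, 8 of the 10 genes were measured at 33 counts or more in every library and 2, Tcf21 and Thy1, were at or near 0. Mean RPKM over the 4 libraries ran from 111 for Des through 63.2 for Mcam, 53.7 for Foxs1 and 34.0 for Foxc1 to 11.8 for Cspg4, 9.65 for Foxd1, 1.65 for Tbx18 and 0.990 for Gata3. Des, Mcam, Foxs1 and Foxc1 overlapped their neighbours in this order across libraries, as did Cspg4 with Foxd1 and Tbx18 with Gata3. The steps between Foxc1 and Cspg4, between Foxd1 and Tbx18 and between Gata3 and Tcf21 showed no overlap and kept their order in 4 of 4 libraries. Among all rows of the lists, Des lay above 97.6% by mean RPKM, Foxs1 above 94.8%, Cspg4 above 79.4% and Gata3 above 55.6%.

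**Figure D1:**
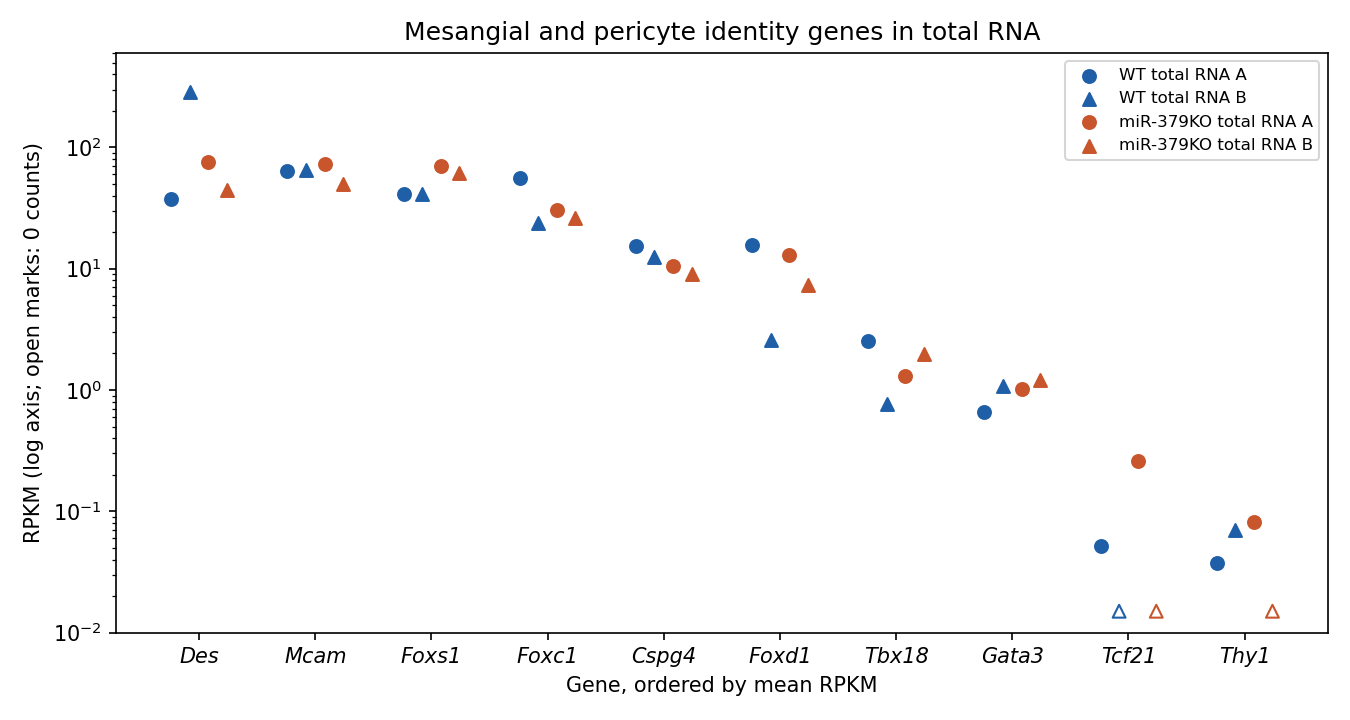
RPKM (log axis) of the 10 genes in each total RNA library, with WT in blue, miR-379KO in orange, circles for replicate A and triangles for B; open marks stand for 0 counts and are set at the bottom of the axis. Des, Mcam, Foxs1 and Foxc1 lie highest, from 23.8 to 284 RPKM in every library, and Tcf21 and Thy1 lie below 0.3 RPKM throughout.

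Foxs1, a forkhead factor gene of pericytes and vascular smooth muscle cells (chr2:152931898-152933208, minus strand, GRCm38), had the highest mean RPKM of the forkhead genes in the lists, ahead of Foxc1, whose range overlapped it. WT A and B held 53.9 and 54.6 CPM, and miR-379KO A and B held 91.8 and 81.2 CPM. The genotypes did not overlap and the miR-379KO libraries were the higher ones.

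Foxc1, a forkhead factor gene of mesenchyme and developing glomeruli (chr13:31806646-31810635, plus strand), measured 222 and 95.0 CPM in WT A and B against 123 and 104 CPM in miR-379KO. WT A was the high library and the other 3 lay close together. Foxd1, the stromal progenitor factor (chr13:98354245-98356705, plus strand), measured 38.7 and 6.39 CPM in WT and 32.0 and 17.9 CPM in miR-379KO. WT B was the low library, below both miR-379KO libraries, while WT A was above them.

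Tbx18, a T-box factor gene of pericytes and ureteral mesenchyme (chr9:87702800-87731260, minus strand), was low at 11.9 and 3.56 CPM in WT and 6.14 and 9.35 CPM in miR-379KO. Gata3, a zinc finger factor gene (chr2:9857078-9887953, minus strand), was lower still at 2.13 and 3.44 CPM in WT and 3.28 and 3.89 CPM in miR-379KO, from 33, 57, 70 and 64 counts. In neither gene did the genotypes separate. Tcf21, a basic helix-loop-helix factor gene of renal stroma and podocytes (chr10:22817263-22820143, minus strand), had 1, 0, 7 and 0 counts in WT A, WT B, miR-379KO A and miR-379KO B, where 0 counts allow up to 0.181 CPM in WT B and 0.182 CPM in miR-379KO B. These limits and all p-values cover the libraries as sequenced, and the limits cover counting error only.

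Des (chr1:75360292-75368579, plus strand) was the most variable of the 8 measured genes in total RNA. It stood at 116 CPM in WT A and 871 CPM in WT B, with 234 and 137 CPM in miR-379KO A and B. WT B was far above the rest and the other 3 libraries lay within 116 to 234 CPM.

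Mcam, encoding an adhesion molecule of pericytes, smooth muscle and endothelium (chr9:44134658-44142727, plus strand), was the most even, at 186 and 187 CPM in WT and 212 and 146 CPM in miR-379KO. Both WT values lay between those of miR-379KO. Cspg4, encoding the NG2 proteoglycan of pericytes (chr9:56865104-56899870, plus strand), measured 123 and 99.6 CPM in WT and 84.8 and 72.5 CPM in miR-379KO, and its genotypes did not overlap, with miR-379KO lower. Thy1 (chr9:44043384-44048579, plus strand) had 1, 2, 3 and 0 counts in the order above, at or under a floor of 3 counts in each library.

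The cell type label was checked against marker lists of 25 other mesangial and pericyte genes, 10 stromal fibroblast genes, 10 podocyte genes, 11 glomerular endothelial genes, 13 tubular and parietal epithelial genes and 9 leukocyte genes. A mean of at least 10 counts in total RNA was reached by 18 of 25, 4 of 10, 7 of 10, 3 of 11, 7 of 13 and 4 of 9 of them. The contractile and cytoskeletal genes Acta2, Vim and Tagln were highest, at 3882 ± 700, 3742 ± 445 and 3667 ± 793 RPKM (mean ± SD over the 4 libraries), and Pdgfrb, the receptor for platelet-derived growth factor B that mesangial cells and pericytes carry, stood at 30.2 ± 9.35 RPKM. Itga8, the mesangial integrin subunit, was at 0.230 ± 0.143 RPKM, the pericyte channel subunit genes Abcc9 and Kcnj8 were at 0 to 4 counts, and Agtr1a and Ren1 had 0 counts in all total RNA libraries.

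Genes of other lineages were in part present as well. Col1a1, which mesangial cells in culture also make, stood at 857 ± 242 RPKM, but the fibroblast receptor gene Pdgfra was at 4 to 6 counts per library. Of the same fibroblast list, the surface antigen gene Ly6a was at 36.7 ± 39.0 RPKM (33 to 1379 counts). Dcn was at 3.25 ± 2.53 RPKM (13 to 278 counts). Of the podocyte genes, Synpo (54.4 ± 24.5 RPKM) and Wt1 (21.1 ± 9.43 RPKM) were measured, while the slit diaphragm gene Nphs1 was at 0 to 4 counts. Pax8, an epithelial factor gene, stood at 40.3 ± 6.93 RPKM and the tight junction gene Cldn1 had 286 to 869 counts. The proximal tubule receptor genes Lrp2 and Cubn had 24 to 472 and 84 to 143 counts, whereas the segment markers Umod, Slc34a1 and Slc12a3 were at 0 in all 4 libraries. Summed over each list, endothelial genes reached 3.92 to 8.38 RPKM and leukocyte genes 2.49 to 8.33 RPKM per library, of which Flt1 (154 to 498 counts), Ehd3 (137 to 371) and Cd14 (45 to 152) were measured while Pecam1 was at 0 to 6 counts and Cd3e at 0. In such bulk RNA, fewer cells of a type and less RNA per cell cannot be told apart.

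Replicates A and B were next set against each other within each group, to see how stable the markers were without a change of genotype. Mcam and Foxs1 were nearly equal in the WT total RNA libraries, with B over A at 1.005-fold and 1.01-fold. Des was 7.51-fold higher in WT B and Foxd1 was 6.06-fold higher in WT A, where the median absolute difference between A and B was 0.42 (log2) over 589 genes of similar count to Des and 0.38 over 4196 genes of similar count to Foxd1. Tbx18 and Foxc1 were 3.33-fold and 2.33-fold higher in WT A, Gata3 was 1.62-fold higher in WT B and Cspg4 was 1.24-fold higher in WT A.

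In miR-379KO total RNA the largest differences between replicates were smaller, but Mcam and Foxs1 differed more than in WT. Foxd1 was 1.78-fold and Des 1.71-fold higher in A, Tbx18 was 1.52-fold higher in B, Mcam was 1.46-fold higher in A, and the other 4 genes, Foxs1 among them, differed by 1.13-fold to 1.19-fold. With 1 library on each side these ratios have no test. The pattern of WT A and B was also seen in AGO2-IP, where Des was 6.49-fold higher in B and Foxd1 was 4.44-fold higher in A. Foxc1 was higher in A in all 4 groups, by 1.18-fold to 2.33-fold, and Foxd1 was too, by 1.62-fold to 6.06-fold.

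**Figure D2:**
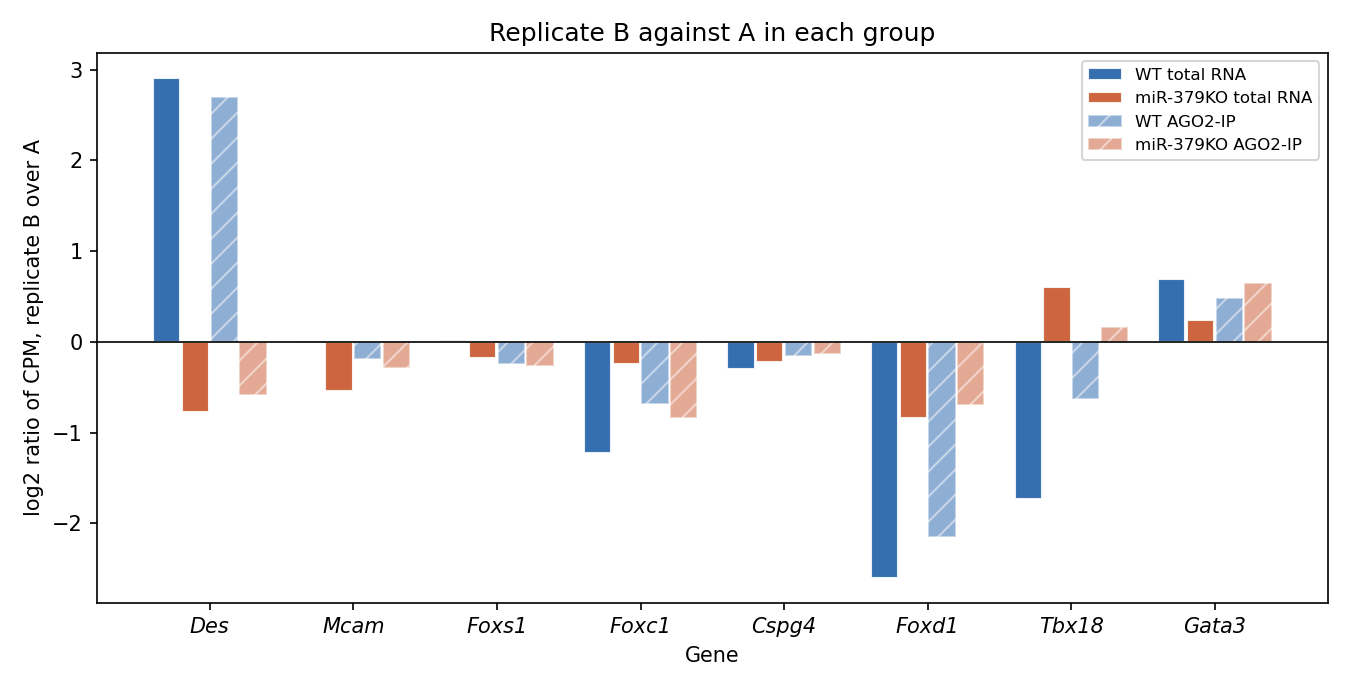
Log2 ratio of CPM in replicate B over replicate A for 8 genes in each of the 4 groups, with total RNA as plain bars and AGO2-IP as hatched bars, WT in blue and miR-379KO in orange. In WT, Des rises to 2.91 in total RNA and 2.70 in AGO2-IP, and Foxd1 falls to −2.60 and −2.15.

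Markers of other lineages differed between the same total RNA libraries. Summed podocyte genes were at 120 and 109 RPKM in WT A and miR-379KO A and at 47.2 and 61.7 RPKM in WT B and miR-379KO B, of which Synpo had 8652, 3561, 10980 and 4282 counts and Wt1 had 1566, 527, 1554 and 906 counts in WT A, WT B, miR-379KO A and miR-379KO B. Clic5, another podocyte gene, had 277, 17, 673 and 182 counts. By CPM, Foxd1, Synpo and Wt1 were highest in WT A, then miR-379KO A, then miR-379KO B and lowest in WT B. Clic5 was also lowest in WT B by CPM, but it was highest in miR-379KO A. Summed tubular and parietal epithelial genes were at 56.7, 79.4, 61.9 and 39.6 RPKM, with Cdh16 at 9, 368, 304 and 21 counts and Pax2 at 58, 692, 513 and 81. Lrp2 had 24, 472, 298 and 127 counts in that order, and Ly6a of the fibroblast list had 33, 1379, 1178 and 112. Cdh16, Pax2, Lrp2 and Ly6a were high in WT B and miR-379KO A, the libraries in which Des was highest. Not every gene of these lists took part. Cubn measured 7.54, 6.09, 6.70 and 5.10 CPM in WT A, WT B, miR-379KO A and miR-379KO B, from 84 to 143 counts. Nphs1 had 0 to 4 counts and Umod and Slc34a1 had 0. Other measured genes followed another order of WT A, WT B, miR-379KO A and miR-379KO B. The podocyte gene Cdkn1c was highest in WT B, at 16, 58, 32 and 20 counts. Podxl, also of that list, was higher in both miR-379KO libraries, at 20.2, 18.2, 26.9 and 24.8 CPM. Pax8 of the epithelial list was highest in WT A, at 120, 115, 97.7 and 81.1 CPM. Of the fibroblast list, Dcn was lowest in WT B, at 9.02, 0.784, 13.0 and 4.55 CPM. Col1a1 of that list was highest in WT B but lowest in miR-379KO A, at 5422, 6376, 3029 and 5494 CPM. The part of these genes in the marker values was not tested.

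Whether loss of miR-379 changed the markers in total RNA was tested with edgeR's quasi-likelihood test over 12321 genes. Of the 8 markers that could be tested, 0 passed a Benjamini-Hochberg adjusted p-value under 0.05, and 0.0% of all genes tested did. DESeq2 also called 0 genes. Without adjustment, 91 genes (0.739%) had a p-value under 0.05, and 1 of the 8 markers, Foxs1, was one of them. Tcf21 and Thy1 did not pass the filter on low counts.

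Foxs1 was 1.65-fold higher in miR-379KO MMC, with a log2 fold change of 0.72 ± 0.20 (SE, edgeR unadjusted p = 0.0111, adjusted p = 0.9997). Without either library of either genotype this estimate stayed between 0.68 and 0.78. With an offset for GC content and length it was 0.525, and with the replicate letter as a block as well it was 0.541. Cspg4 had a log2 fold change of −0.46 ± 0.22 and Mcam of −0.02 ± 0.24. These 3 genes had standard errors of at most 0.24.

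The other markers were estimated less precisely. Des had a log2 fold change of −1.36 ± 0.89, which became 0.70 without WT B, and Foxd1 had 0.18 ± 0.81, which became 2.02 without WT A and −0.61 without WT B. Foxc1 (−0.44 ± 0.40), Gata3 (0.41 ± 0.42) and Tbx18 (0.05 ± 0.59) had errors near or above the estimate. The median over the 8 was 0.02, against −0.01 over all genes tested. Groups did not overlap in 2 of 8 markers, Foxs1 with miR-379KO higher and Cspg4 with miR-379KO lower, against 19.3% of all genes tested (6.33% higher, 13.0% lower), so that share was close to the background.

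**Figure D3:**
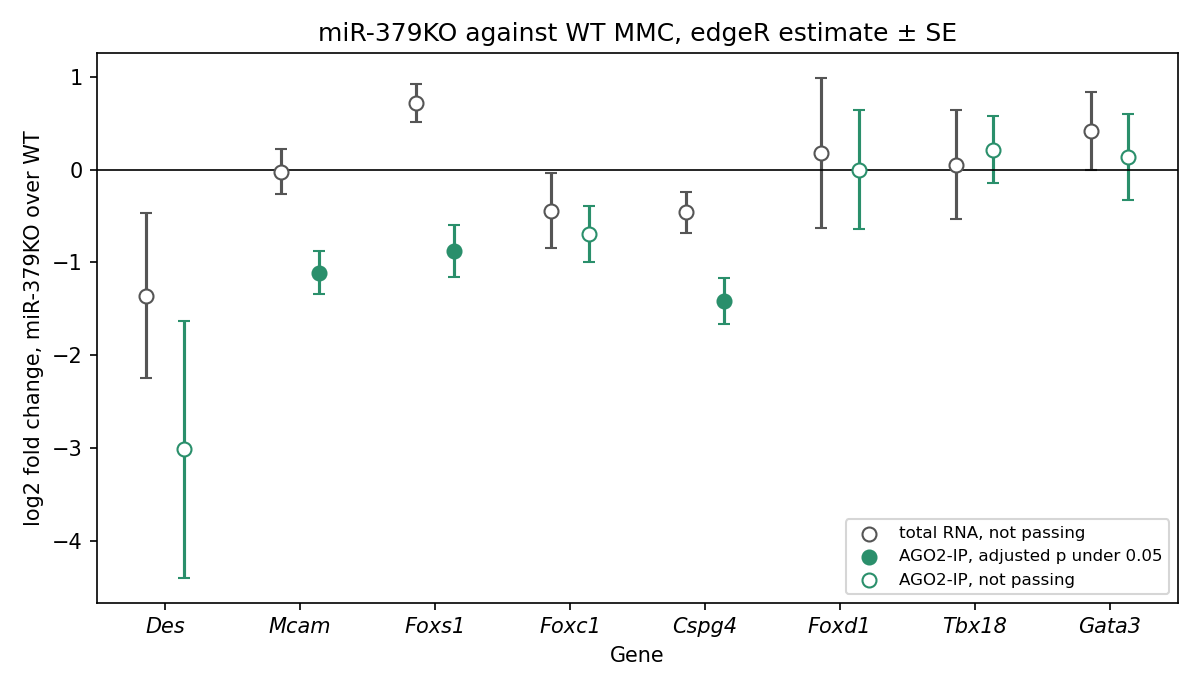
Log2 fold change of miR-379KO over WT MMC (edgeR estimate, bars are SE) for the 8 genes that passed the count filter, with total RNA in grey and AGO2-IP in green; filled points passed an adjusted p-value under 0.05. In total RNA all 8 points are open, and in AGO2-IP Mcam, Foxs1 and Cspg4 are filled at −1.11, −0.88 and −1.41.

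Recovery in AGO2-IP was read against a background, the mean count per kilobase of exon over 5226 coding genes that had 0 counts in all total RNA libraries. This background was 1.34 and 0.908 counts per kilobase in the WT libraries A and B, compared to 3.07 and 3.50 for miR-379KO. Des, Mcam, Foxs1, Foxc1 and Cspg4 lay at 33.1 to 272 times the background in WT and at 3.45 to 17.2 times in miR-379KO. Foxd1 lay at 17.3 and 4.92 times in WT and at 5.03 and 2.32 times in miR-379KO.

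The low markers came close to this background in miR-379KO. Tbx18 had 29 and 16 AGO2-IP counts in WT, at 4.62 and 3.76 times the background, and 23 and 22 in miR-379KO, at 1.60 and 1.34 times. Gata3 had 10, 12, 9 and 12 counts, at 2.32, 4.11, 0.913 and 1.07 times. Tcf21 had 3, 0, 3 and 0 counts and Thy1 had 3, 1, 3 and 3, so recovery of Tcf21 and Thy1 was not detectable at this depth.

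**Figure D4:**
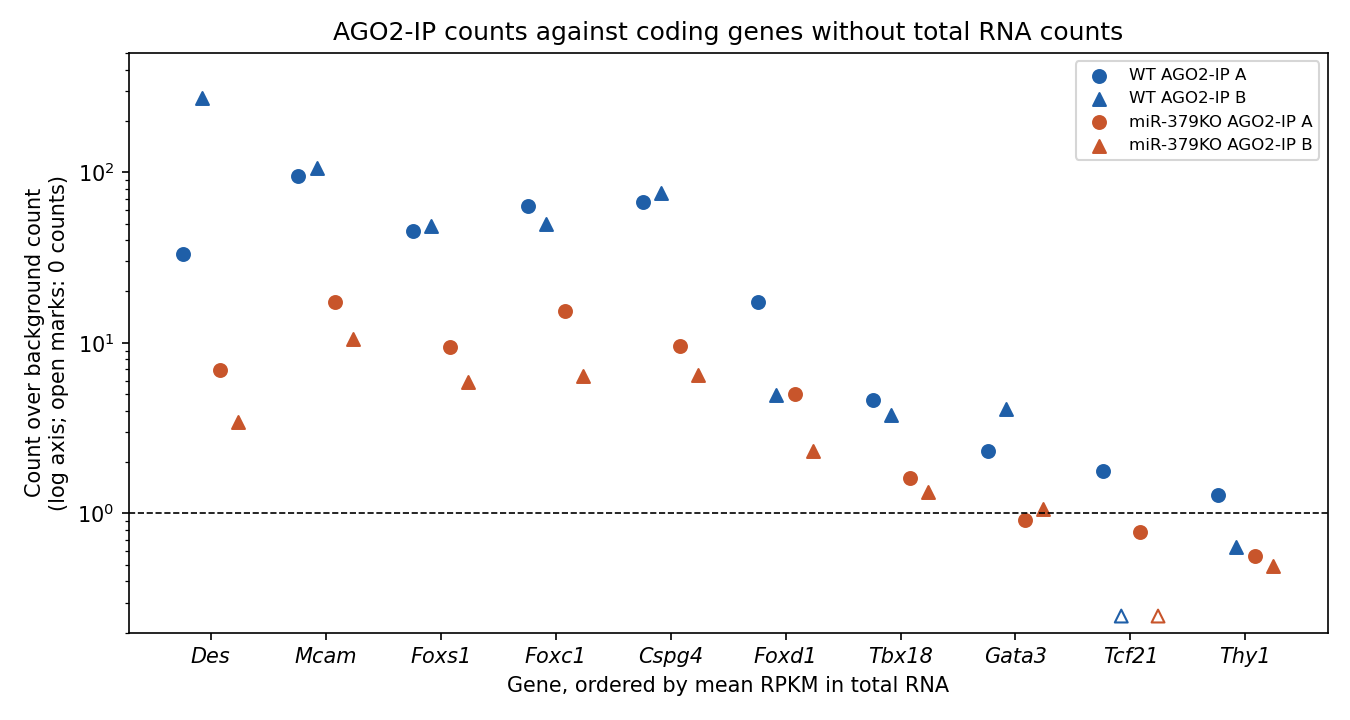
AGO2-IP count of each gene divided by the background count for its exon length (log axis, dashed line at 1) in each AGO2-IP library, with WT in blue, miR-379KO in orange, circles for A and triangles for B; open marks stand for 0 counts. The 6 most abundant genes lie above the line in every library, and Gata3 reaches 0.913 and 1.07 in miR-379KO.

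Within each genotype, AGO2-IP was then compared with total RNA, where a call also needed a 2-fold difference. The protocols of these assays differ, so a difference covers the protocol as well as binding to AGO2. In WT MMC 2 of 8 markers passed, both higher in AGO2-IP, against 43.1% of 17429 genes tested in either direction, 35.7% higher and 7.33% lower. Cspg4 measured 387 and 346 CPM in WT AGO2-IP, compared to 123 and 99.6 CPM in total RNA, a log2 fold change of 1.91 ± 0.25 (edgeR adjusted p = 2.22e-05), or 1.14 with the GC content and length offset (adjusted p = 0.000417). Gata3 also passed, at 1.35 ± 0.51 (adjusted p = 0.0354), from the 10 and 12 counts above, and it no longer passed by DESeq2 (adjusted p = 0.119) or without WT total RNA A or any 1 AGO2-IP library (adjusted p = 0.0885 to 0.334). Background made up 43.1% and 24.3% of the Gata3 counts in WT AGO2-IP A and B. With the background subtracted, Gata3 was at 3.03 and 5.66 CPM there, compared to 2.13 and 3.44 CPM in total RNA. Foxs1 (−0.28 ± 0.25), Mcam (0.16 ± 0.26) and Foxc1 (0.10 ± 0.39) did not pass. The median over the 8 was 0.13, against 0.49 over all genes tested.

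In miR-379KO MMC 2 of 8 markers passed, both lower in AGO2-IP, against 61.0% of genes in either direction, 19.3% lower and 41.6% higher. With scaling on genes measured in total RNA, 4 of 8 passed and the direction turned, with 3 higher (Gata3 at 1.35, Tbx18 at 1.33 and Cspg4 at 1.20) and 1 lower (Foxs1 at −1.62). Gata3 lay at 0.913 and 1.07 times the background in miR-379KO AGO2-IP, and Tbx18 at 1.60 and 1.34 times. The higher values of Gata3 and Tbx18 can therefore not be read as recovery above total RNA. The split of all calls was 7256 higher and 3371 lower, and with that scaling it was 8210 higher and 1855 lower. Foxs1 measured 29.0 and 24.2 CPM in AGO2-IP, compared to 91.8 and 81.2 CPM in total RNA, a log2 fold change of −2.09 ± 0.27 (edgeR adjusted p = 2.96e-06), or −1.08 with the GC content and length offset (adjusted p = 0.00151). All its AGO2-IP values lay below all its total RNA values. Mcam measured 117 and 95.9 CPM against 212 and 146 CPM, at −1.14 ± 0.27 (adjusted p = 0.00127), and this fell under 2-fold without miR-379KO total RNA A (−0.89), without miR-379KO AGO2-IP B (−0.94), and with DESeq2, RLE factors, scaling on genes measured in total RNA or the GC content and length offset (−0.95 to −0.67). Cspg4 was higher by 0.73 ± 0.25 (adjusted p = 0.0151), under 2-fold. The median over the 8 was −0.43, against 0.47 over all genes tested.

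The AGO2-IP libraries of both genotypes were compared with each other next. In miR-379KO, 3 of the 8 markers were lower and 0 were higher, against 30.9% of 13505 genes called, 9.52% lower and 21.4% higher. The split of all calls was 2887 higher and 1286 lower, and with scaling on genes measured in total RNA it was 3445 higher and 468 lower. Cspg4 fell from 387 and 346 CPM in WT to 180 and 163 CPM in miR-379KO, a log2 fold change of −1.41 ± 0.25 (edgeR adjusted p = 0.000461). Mcam fell from 197 and 173 CPM to 117 and 95.9 CPM, by −1.11 ± 0.23 (adjusted p = 0.00163). In both genes every miR-379KO library lay below every WT library.

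Foxs1 fell from 42.7 and 36.1 CPM to 29.0 and 24.2 CPM, by −0.88 ± 0.28 (edgeR adjusted p = 0.0197), from 80, 58, 38 and 27 counts. It did not pass with DESeq2 (adjusted p = 0.170), with an offset for GC content and length (−0.40, adjusted p = 0.269), with scaling on genes measured in total RNA (−0.67, adjusted p = 0.0744), in the fit of all 8 libraries (adjusted p = 0.0503), or without WT A (adjusted p = 0.0670) or miR-379KO B (adjusted p = 0.218). Cspg4 and Mcam passed under each of these.

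The remaining markers did not pass. Des measured 72.5 and 471 CPM in WT and 49.7 and 33.2 CPM in miR-379KO, at −3.01 ± 1.38 (adjusted p = 0.253). It passed when any 1 of the 4 libraries was left out, at −3.88 to −1.14 (adjusted p = 1.88e-28 to 0.00222, weakest without WT B), fits in which the lone library is assumed to vary like the pair of the other genotype. It also passed with the replicate block and the offset together (−2.25, adjusted p = 0.0282). Foxc1 measured 181 and 112 CPM in WT and 143 and 79.8 CPM in miR-379KO, at −0.70 ± 0.30 (adjusted p = 0.0933), and passed without a filter (adjusted p = 0.0114), without WT B (adjusted p = 0.00773), without miR-379KO A (−1.32, adjusted p = 0.00174) and with the replicate letter as a block (−0.73, adjusted p = 0.0310), but was at −0.32 without miR-379KO B. Foxd1 (0.00073 ± 0.64), Gata3 (0.13 ± 0.46) and Tbx18 (0.21 ± 0.36) were within their errors.

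**Figure D5:**
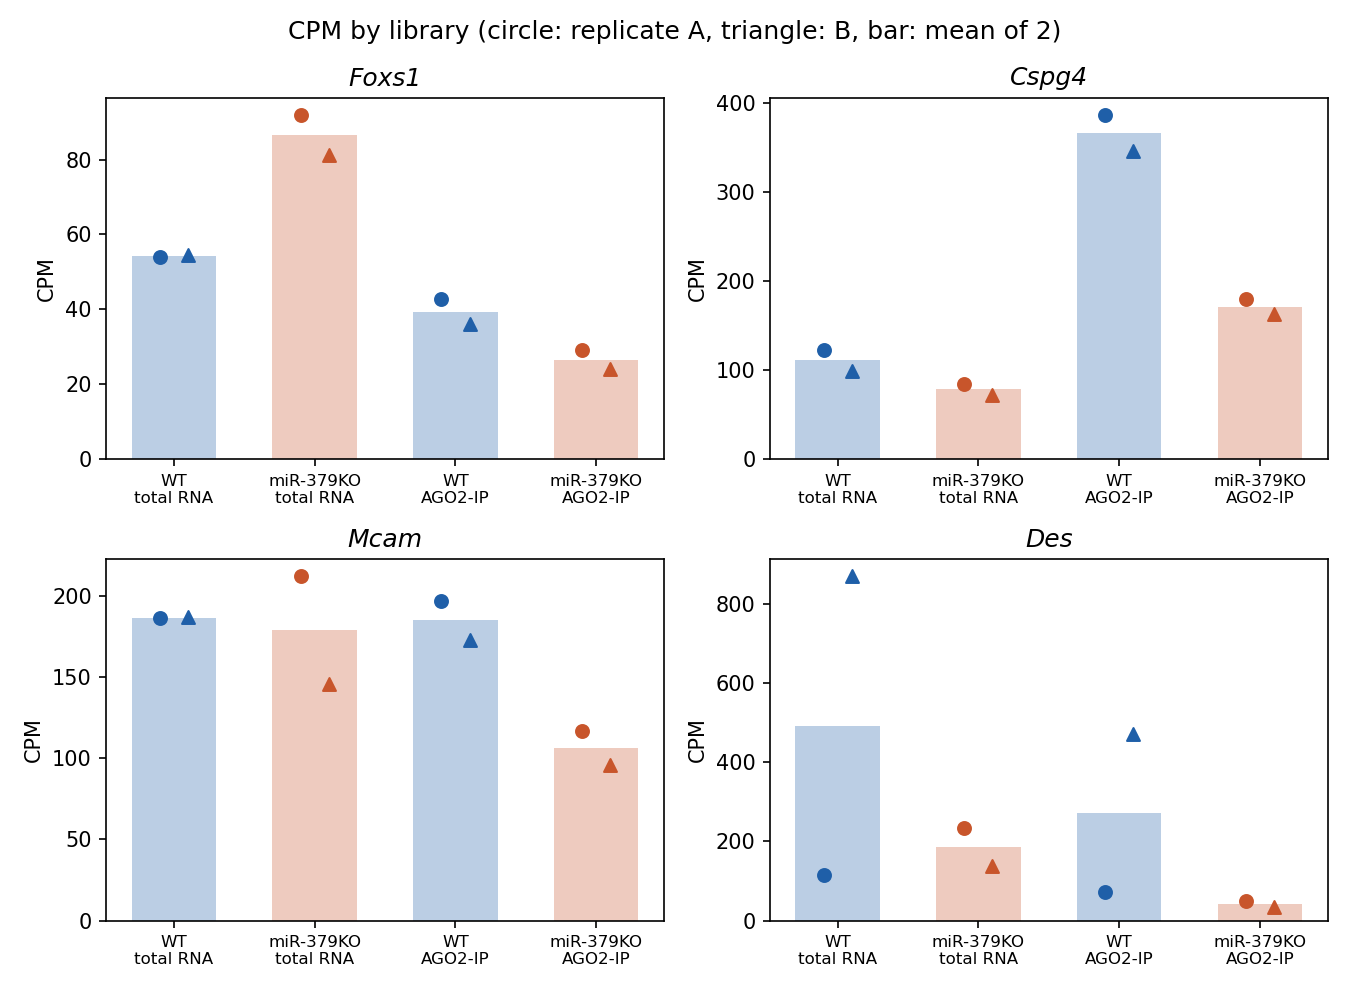
CPM of Foxs1, Cspg4, Mcam and Des by group, with circles for replicate A, triangles for B and bars for the mean of the 2 libraries; the axes start at 0. In AGO2-IP both miR-379KO libraries lie below both WT libraries in all 4 genes, whereas in total RNA Foxs1 lies higher in miR-379KO and Mcam overlaps.

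Groups did not overlap in 5 of 8 markers in AGO2-IP, against 63.8% of all genes tested. In 4 of them, Foxs1, Des, Mcam and Cspg4, miR-379KO was lower, against 14.6% of genes, and in Tbx18 it was higher, against 49.1%. The median over the 8 was −0.79, against −0.01 over all genes tested. The background was larger in the miR-379KO libraries. With that background subtracted in each library, the log2 ratio of mean CPM was −1.27 for Cspg4, −0.89 for Mcam and −0.74 for Foxs1, compared to −0.52 for Foxc1 and −0.03 for Foxd1. This calculation was chosen after seeing the data and uses plain CPM, so it is not to be set against the edgeR estimates. Without subtraction the ratio itself, not as log2, was 0.468, 0.575, 0.676, 0.760 and 1.26 in that order. Subtraction thus lowered each ratio. The library totals kept the background, so the calculation cannot show the part of the background.

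An interaction contrast on all 8 libraries asked if the genotype difference in AGO2-IP was unlike that in total RNA. Here 0 of 17429 genes passed in edgeR (0.0%), 2733 (15.7%) had an unadjusted p-value under 0.05, and DESeq2 called 114 genes, among them 2 of the 8 markers, Mcam (−1.04, adjusted p = 0.0376) and Cspg4 (−0.91, adjusted p = 0.0328). In edgeR, Foxs1 had an interaction of −1.81 ± 0.36 (adjusted p = 0.211), Mcam of −1.30 ± 0.38 and Cspg4 of −1.18 ± 0.35 (both adjusted p = 0.235). Of the 8 markers 8 had a negative estimate, with a median of −0.84 against 0.01 over all genes tested, but the signs of Foxd1, Foxc1, Gata3, Tbx18 and Des turned in at least 1 alternative. Without WT total RNA B, edgeR called 1547 genes and 3 of the 8 markers, Foxs1, Mcam and Cspg4, and without WT total RNA A it called 28 genes and 1 marker, Foxs1. The opposite directions of Foxs1 in total RNA and AGO2-IP were thus not called by the interaction test on all libraries.

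The other mesangial and pericyte genes were called in both directions between genotypes. Of 18 tested in total RNA, 0 passed between genotypes. Of 18 tested in AGO2-IP, 3 were higher in miR-379KO (Abcc9, Itga8 and Gucy1a3) and 2 were lower (Pdgfrb at −0.94 ± 0.26, edgeR adjusted p = 0.00880, and Tagln at −0.87 ± 0.30, adjusted p = 0.0323), and the median was −0.0041. Abcc9, Itga8 and Gucy1a3 had at most 45 counts in each total RNA library, and Abcc9 had 15, 5, 40 and 39 counts in AGO2-IP. Every gene of this list from 12.7 RPKM upward in total RNA had a negative estimate in AGO2-IP, as Acta2 (−0.67 ± 0.33) and Vim (−0.59 ± 0.31) did without a call. Both signs occurred only at 7.80 RPKM or less. Negative estimates in AGO2-IP were therefore not particular to the markers. Of the tubular and parietal epithelial genes, 6 of 9 tested were higher, of which Cubn had the smallest p-value, at 1.74 ± 0.27 (edgeR adjusted p = 0.000247), and 1, Pax8, was lower, and of the podocyte genes 3 of 8 were higher (Nphs1, Plce1 and Clic5) and 0 lower, at medians of 1.74 and 0.85. Fibroblast genes gave 2 higher (Dcn and Pdgfra) and 1 lower (Col1a1) of 4, endothelial genes 2 higher (Sox17 and Kdr) of 4, and leukocyte genes 1 higher (Ptprc) of 4. Over all genes tested the shares were the 21.4% higher and 9.52% lower given above. Sox17, Kdr, Nphs1 and Ptprc had 0, 0 to 2, 0 to 4 and 3 to 7 counts in total RNA, and the background per kilobase was higher in miR-379KO AGO2-IP, whose part in these calls was not tested.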

How the data were processed

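Values were whole-number gene counts, deposited by the authors without normalization, 1 list per sample. Per the study's methods, total RNA libraries used a stranded poly(A) kit. For AGO2-IP, cells were cross-linked by UV and sonicated, and the recovered RNA was sequenced by a small RNA protocol with paired ends, so levels in the assays also differ by protocol. The authors aligned reads with TopHat to mm10 and counted them strand-specifically on UCSC RefSeq genes with HTSeq 0.6.0 at a minimum alignment quality of 10. Summary lines, at 19.8% to 88.9% of listed reads, stayed out of all tests.

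Symbols were matched to RefSeq GRCm38.p6 (the sequence of mm10) for positions, exon lengths and 3′-UTRs. Of 24639 rows, 23628 matched by symbol, 724 by synonym and 287 did not match. Tests used edgeR 4.0.16 (limma 3.58.1, R 4.3.3), TMM scaling, filterByExpr at its minimum count of 10, robust quasi-likelihood F tests and Benjamini-Hochberg adjustment over all genes tested. AGO2-IP against total RNA also required 2-fold. Genotype comparisons were fitted on the 4 libraries of an assay, other comparisons on all 8. SE is the log2 fold change over the root of its F statistic. Fits were tested on simulated data. No replicate pair agreed within sampling noise (chi-square per degree of freedom 4.22 to 126). Alternatives were DESeq2 1.42.0, other scaling, no filter, a GC content and length offset (lowess span 0.3), replicate blocks, a fit of all 8 libraries and omission of each replicate.

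Named were all 10 markers and, from each other list or family, up to 3 genes of highest RPKM (4 for families), up to 3 of smallest adjusted p where they passed, and the 3 genes most alike to each of the 3 most abundant markers. Itga8, Gucy1a3, Abcc9, Kcnj8, Agtr1a, Ren1, Pdgfra, Nphs1, Umod, Slc34a1, Slc12a3, Ly6a, Cdh16, Pax2, Pecam1, Cd3e, Foxc2 and Pdgfrb were added after their values were seen. A gene of the lists is not reported here. The markers and lists were chosen with earlier results of these data known.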

Additional observations from a re-analysis of the deposited data

How the results depend on the processing

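Over all members, comparisons and alternatives, 465 of 566 log2 fold changes kept their direction and their side of the threshold, 20 lost a call, 20 gained one and 61 changed sign. The 566 include the background-subtracted ratios, which have no p-value. Those were counted as kept where they had the sign of the edgeR estimate and lay within its SE. Among the members with a call, Cspg4 and Mcam in AGO2-IP between genotypes and Cspg4 in AGO2-IP against total RNA of WT MMC kept their calls in each alternative, and Foxs1 kept its call in AGO2-IP against total RNA of miR-379KO MMC. The offset shrank the last 2 from 1.91 to 1.14 and from −2.09 to −1.08. No call of total RNA between genotypes appeared for a member in any alternative. Each group held 2 libraries, AGO2-IP counts of Tcf21 and Thy1 were too few to measure recovery, and those of Gata3 and Tbx18 were near background in miR-379KO. Where a replicate was left out, the lone library was assumed to vary like the other groups. The causes were not tested.

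Counts of called genes moved by more than 1.5 times as follows. Between genotypes in AGO2-IP, 4173 genes (2887 higher, 1286 lower) became 802 with DESeq2 and 686 in the fit of all 8 libraries, and 918 to 3337 when a replicate was left out (lowest without miR-379KO AGO2-IP B, and 2351 without WT AGO2-IP B). The members called there were 3 to 5 when a replicate was left out. Higher and lower calls were 1891 and 1661 with the GC content and length offset and 2784 and 2366 without a filter. In AGO2-IP against total RNA of WT MMC, the members called were 1 with DESeq2 and 4 without a filter, and 1 to 2 when a replicate was left out. In miR-379KO MMC, 10627 genes became 16163 without a filter, and the members called were 1 with DESeq2, with RLE factors, with the offset and with the offset and block, 4 (3 higher, 1 lower) with scaling on genes measured in total RNA, and 1 to 2 when a replicate was left out. For the interaction, edgeR's 0 became 114 with DESeq2, 2 with scaling on genes measured in total RNA, 8 with the block and 3 with block and offset, and 0 to 1547 when a replicate was left out, with 2 members called by DESeq2 and 0 to 3 when a replicate was left out.

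The labels do not say what the letters A and B share, and the deviations of same-letter libraries correlated at −0.13 between genotypes in total RNA (11539 genes) and 0.025 in AGO2-IP (7911 genes), so that between genotypes the letters were not taken as pairs. Between total RNA and AGO2-IP they correlated at 0.27 in WT (8521 genes) and 0.20 in miR-379KO (8290 genes), and at −0.075 and 0.20 across genotypes, which is a hint from the data and not from the design. These are correlations across genes, which are not independent replicates. With the letter as a replicate block, calls between genotypes were 0 in total RNA and 3817 in AGO2-IP, and calls of AGO2-IP against total RNA were 7473 in WT and 10604 in miR-379KO, and the crossed pairing in total RNA, chosen after seeing the data, gave 1 call and 0 members. Scaling on genes measured in total RNA put the all-gene median at 0.20 (log2) between genotypes in AGO2-IP, at 0.95 in AGO2-IP against total RNA of miR-379KO MMC and at 0.39 in the interaction, and RLE factors put the last at 0.28.

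Signs changed in estimates that were not called. In total RNA between genotypes, Mcam was 0.049 in the fit of all 8 libraries, and leaving out a replicate gave ranges of −0.94 to 0.32 for Foxc1, −0.61 to 2.02 for Foxd1, −0.58 to 1.19 for Tbx18, −2.17 to 0.70 for Des and −0.26 to 0.21 for Mcam. In AGO2-IP between genotypes, Foxd1 was −0.0060 with DESeq2, −0.029 with RLE factors, −0.20 without a filter, −0.13 in the fit of all 8 libraries and −0.026 with the background subtracted. Gata3 was −0.076 without a filter and −0.018 in the fit of all 8 libraries, and Tbx18 was −0.067 with the offset and −0.050 with block and offset. Leaving out a replicate gave −0.70 to 1.40 for Foxd1, −0.18 to 0.34 for Gata3 and −0.089 to 0.50 for Tbx18. In AGO2-IP against total RNA of WT MMC, Foxs1 was 0.033 with the offset and 0.044 with block and offset, Foxc1 was −0.0039 with DESeq2, −0.0025 with RLE factors and −0.037 with the offset, and Foxd1 was 0.025 with scaling on genes measured in total RNA and 0.076 with the block. Leaving out a replicate gave −0.53 to 0.67 for Foxc1, −1.74 to 1.62 for Foxd1, −2.92 to 1.48 for Des and −0.15 to 0.23 for Mcam. In miR-379KO MMC, Foxc1 was 0.059 and Foxd1 0.0028 with scaling on genes measured in total RNA, and Foxc1 ran from −0.97 to 0.0072 when a replicate was left out. For the interaction, Foxd1 was 0.31 with the offset and 0.0064 with block and offset, and Tbx18 was 0.20 with DESeq2, 0.20 with RLE factors and 0.33 with scaling on genes measured in total RNA. Leaving out a replicate gave −1.13 to 0.18 for Foxc1, −2.14 to 1.26 for Foxd1, −0.99 to 0.053 for Gata3, −1.08 to 0.49 for Tbx18 and −4.08 to 0.35 for Des.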

Other observations

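The families of the marker transcription factors were looked at by symbol. Opposite-strand RNAs named after these genes were left out. Of 44 forkhead genes, 25 reached a mean of 10 counts in total RNA and 8 had 0 counts in all 4 libraries. By mean RPKM Foxs1 and Foxc1 stood first and second, followed by the ubiquitous Foxk2 (29.0 ± 1.55 RPKM, SD, n = 4) and Foxp1 (21.6 ± 6.98 RPKM), with Foxd1 further down at rank 10. Foxs1 was above Foxk2 in 4 of 4 libraries, but Foxc1 was above it in 2 of 4, so the order of Foxc1 and Foxk2 is not separated. Foxc2, a paralog of Foxc1, was at 21.0 ± 4.10 RPKM. Of Gata1 to Gata6, 3 reached that mean and 3 had 0 counts, and Gata2 (6.54 ± 1.25 RPKM) and Gata6 were above Gata3 (0.990 ± 0.233 RPKM). Of 13 T-box genes 3 reached it, Tbx15, Tbx18 and Tbx3, at 2.12, 1.65 and 1.54 RPKM.

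The genes most alike to the 3 most abundant markers were found by Pearson's r of log2(CPM + 1), centred within each assay, over 8 libraries and 8388 genes. The 8 points share libraries and the choice was made on r, so these values are a description. Bag2, a co-chaperone gene, was closest to Des (r = 0.987), with Atp6v1g1 (0.967) and Csk (0.964) next. Bag2 measured 71.7, 101.1, 83.9 and 79.8 CPM in WT A, WT B, miR-379KO A and miR-379KO B of total RNA, highest in WT B like Des, but by a much smaller factor. Cpt1c (0.977), Sidt2 (0.976) and Mboat7 (0.972) were closest to Mcam. Map2k7 (0.959), Actn4 (0.919) and Ilvbl (0.907) were closest to Foxs1, and Actn4, an actin cross-linker gene, measured 1478, 1428, 1885 and 1634.6 CPM in total RNA and 914, 882, 699 and 583 CPM in AGO2-IP, higher in miR-379KO in the first assay and lower in the second, as Foxs1 was.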
